A study of Mus musculus with 6 samples.

Results

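The open chromatin at 10 mouse genes of the Krüppel-like factor (KLF) family, Klf15, Klf9, Klf10, Klf11, Klf12, Klf13, Klf3, Klf6, Klf4 and Klf16, was described in hepatocyte nuclei. A region of overlapping peaks was taken when it had a peak in any of 6 libraries and its middle lay closest to the span of a member gene, within 50 kb. This gave 148 of 109853 regions. The regions were thus chosen by the presence of a deposited peak, which is not a result, and the genes were picked with earlier results of these data known, so their counts are a description and no independent support. The data come from Omni-ATAC, a form of ATAC-seq in which a transposase inserts adapters into open DNA, on male mouse liver nuclei sorted for HNF4a, a transcription factor of hepatocytes. The dKO group (3 libraries) carried 2 floxed genes, 1 of which is Ncor1, and received an adeno-associated virus (AAV) with Cre recombinase. The control group (3 libraries) carried the same floxed genes and received AAV-eGFP, so both groups had the virus and the floxed alleles. Livers of both groups were taken at zeitgeber time 10, late in the light phase, on day 5 of the virus. The sources used here give neither the promoter that drove Cre nor the age of the mice, nor whether libraries stand for separate animals. The p-values therefore measure library-to-library spread, some of which may be technical. A lower value cannot tell fewer open nuclei from less cutting per nucleus.

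KLF proteins are transcription factors that bind GC-rich and CACCC-type DNA through a conserved block of zinc fingers at the C terminus, the same DNA that SP factors bind. Their other parts recruit different cofactors: KLF9, KLF10, KLF11, KLF13 and KLF16 bind the SIN3 corepressor, KLF3 and KLF12 bind the CtBP corepressor, and KLF4 and KLF6 mostly act with coactivators. In liver, KLF15 is a fasting-linked and glucocorticoid-inducible factor of gluconeogenesis and amino acid breakdown, and KLF9 is a glucocorticoid- and thyroid hormone-inducible factor. NCOR1 is a corepressor of nuclear receptors.

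The RefSeq promoter table of GRCm38.p6, the same build as mm10, held 8 of the 10 genes, all but Klf10 and Klf16. The 250 bases before the start are shown for 4 of them: Klf15, whose window held no peak, Klf9 and Klf6, whose windows were overlapped by a region called lower in dKO, and Klf4, whose window was overlapped by a region that was not called. Capitals mark every match, on either strand, to the GC box GGGCGG, the CACCC box CCACCC, the E-box CACGTG, the cAMP response element TGACGTCA and the steroid receptor half-site AGAACA.
Klf15 (chr6:90462326-90462575, plus strand): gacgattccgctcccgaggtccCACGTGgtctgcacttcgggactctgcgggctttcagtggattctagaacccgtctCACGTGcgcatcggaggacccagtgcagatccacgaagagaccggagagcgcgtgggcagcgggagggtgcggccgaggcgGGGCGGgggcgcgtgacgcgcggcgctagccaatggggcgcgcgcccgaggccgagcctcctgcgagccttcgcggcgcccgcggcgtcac
Klf9 (chr19:23140976-23141225, plus strand): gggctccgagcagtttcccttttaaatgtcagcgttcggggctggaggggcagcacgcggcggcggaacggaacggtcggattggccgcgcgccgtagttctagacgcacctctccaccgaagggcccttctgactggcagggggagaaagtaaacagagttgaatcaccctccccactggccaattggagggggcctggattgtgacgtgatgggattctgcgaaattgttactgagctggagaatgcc
Klf6 (chr13:5861239-5861488, plus strand): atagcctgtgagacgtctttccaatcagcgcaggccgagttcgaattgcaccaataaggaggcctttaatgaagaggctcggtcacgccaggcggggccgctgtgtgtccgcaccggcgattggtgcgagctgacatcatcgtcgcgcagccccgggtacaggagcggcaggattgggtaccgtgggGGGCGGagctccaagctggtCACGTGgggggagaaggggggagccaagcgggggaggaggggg
Klf4 (chr4:55532476-55532725, minus strand): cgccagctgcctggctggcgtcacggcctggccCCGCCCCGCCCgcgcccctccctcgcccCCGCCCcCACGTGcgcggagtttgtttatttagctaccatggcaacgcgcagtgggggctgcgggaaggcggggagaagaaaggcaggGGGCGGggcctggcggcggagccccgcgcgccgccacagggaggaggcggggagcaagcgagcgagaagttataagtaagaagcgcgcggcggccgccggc
The Klf15 window held 1 GC box and 2 E-boxes, and the Klf6 window 1 of each. The Klf4 window held 4 GC boxes and 1 E-box, with 1 pair of matches overlapping, and the Klf9 window held none of these letters. Of 32851 promoter windows in the table, 32.7% held the GC box, 28.1% the CACCC box, 6.02% the E-box, 1.55% the cAMP response element and 16.1% the half-site. None of the 8 KLF windows held the cAMP response element or the half-site. A match is a run of letters and not a shown binding site.

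The lists held 71473 to 84614 peaks per dKO library and 68316 to 83371 per control library, and each peak has a normalized tag count, a signal scaled to library depth by the peak finder. Deposited peaks were 172 bp wide in dKO 3 and control 3 and 166 bp in control 2, the wide-peak libraries. They were of 1 narrower width in dKO 1, dKO 2 and control 1, the narrow-peak libraries. Peak width was examined as a batch in separate fits, and the p-values printed come from the fit with group as its only term unless another is named. Of 8 hepatocyte marker genes, 7 had a region with a peak in all libraries, all but Apoa1, and all 8 had a peak within 1 kb of a gene end. The summed values of those end peaks, with a missing peak as 0, were 206 to 376 in dKO and 352 to 474 in control libraries. None of 6 macrophage and 5 lymphocyte markers had a peak there. Peaks there were found at 4 of 7 endothelial markers (sums of 4.26 to 20 in dKO and 7.51 to 15.0 in control), 3 of 6 stellate cell and fibroblast markers (25.8 to 45.2 and 32.1 to 48.7) and 2 of 5 cholangiocyte markers (19.9 to 29.0 and 13.2 to 20). Stab2, Pecam1, Clec4g, Dcn, Pdgfrb, Des, Krt19, Krt7 and Spp1 had none. The part of the differing hepatocyte and cholangiocyte sums in the KLF results was not tested.

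Accessibility at the KLF genes was mostly lower in dKO where it was called at all, and Klf15 held 7 of the 17 regions that fell. Of the 148 regions, 66 had a peak in all 6 libraries, as 51749 of all regions did, and only these shared regions were tested. limma, a linear model fitted on log2(value + 1) of all shared regions with each library centred on its median, called 3 KLF regions higher and 17 lower at an adjusted p of 0.05, and 46 were not called. That is 4.55% higher and 25.8% lower, against 8.19% higher, 11.6% lower and 19.8% in either direction over all shared regions. The median log2 fold change (dKO minus control) was -0.21 at KLF genes and -0.02 over all shared regions, and 49 of 66 were below 0, where 52.5% of all were. The dKO values lay below every control value in 21 KLF regions (15.8% of all shared regions) and above in 8 (12.6%). No test was made of the list as a whole. The counts were 4 higher and 11 lower with quantile normalization, for which 8.64% and 8.86% of all regions were called. They were 2 and 4 without dKO 1 (3.16% and 3.98% of all regions), 1 and 3 without dKO 2 (2.43% and 2.71%), and 6 and 23 without dKO 3 (5174 of the 51749 and 15.7%). With quantile normalization 44 of the 66 fold changes were below 0 and their median was -0.13, and with no centring 51 were and it was -0.27. In the median-centred fit, 15 of 35 shared regions at the 8 hepatocyte marker genes were called lower (42.9%) and 0 higher. Their median log2 fold change was -0.32, so a larger share fell there than at KLF genes. The difference between these genes and the KLF genes was not tested.

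**Figure D1:**
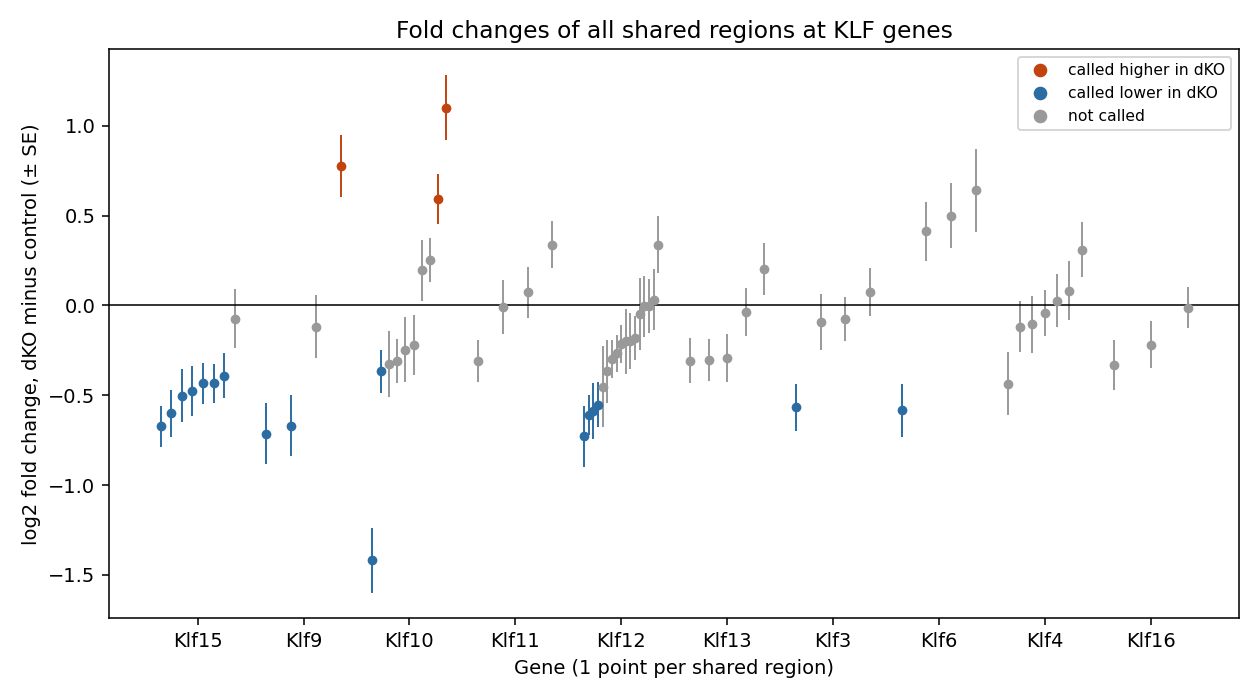
Each point is a KLF region with a peak in all 6 libraries, placed by gene, with its log2 fold change (dKO minus control, log2(value + 1) scale) and standard error on the vertical axis. All 8 Klf15 regions lie below 0, while Klf10 holds both the largest fall (-1.42) and the largest rise (1.101).

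The calls were also counted by strength and by distance to the gene. Among KLF regions with a mean of at least 30 normalized tags, a split chosen after the data were seen, 0 rose and 8 of 18 fell, against 2.06% and 19.5% of all shared regions of that strength. Among the weaker KLF regions 3 of 48 rose and 9 fell (6.25% and 18.8%), against 9.87% and 9.42% of all shared regions of that strength. Within 1 kb of a gene end, 4 of 10 shared KLF regions fell and 0 rose, against 10.5% and 2.74% of all such regions. All 18 strong KLF regions had a fold change below 0, as had 77.2% of all strong shared regions, with medians of -0.31 and -0.17, so most strong regions of the series shared that sign. With quantile normalization 17 of the 18 were below 0 (median -0.16), against 50.6% of all strong regions.

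Around Klf15, the gene of the fasting-linked factor, accessibility was lower in dKO on both sides of the gene. The gene spans chr6:90461043-90491803 and had 15 regions, of which 8 were shared. Of these, 7 fell, by 0.39 to 0.67 on the log2 scale, and 0 rose, against 11.6% and 8.19% of all shared regions. The region with the smallest p, chr6:90450833-90451091, lies 10081 bp before the gene and had 27.9, 25.5 and 37.7 normalized tags in dKO 1, dKO 2 and dKO 3, against 49.8, 51.1 and 50.5 in control 1, control 2 and control 3. The controls lay within 2 tags of each other and every dKO library was below them, with dKO 3 the highest of the dKO libraries. The log2 fold change was -0.67 (SE 0.11, limma adjusted p = 0.00239), and it was called without each library in turn. Past the far end of the gene, chr6:90508188-90508525 had 19.3, 18.9 and 29.4 normalized tags in dKO, against 35.2, 34.6 and 36.7 in control libraries (log2 fold change -0.60, SE 0.13, adjusted p = 0.00769). The strongest shared Klf15 region, chr6:90515024-90515197, 23307 bp past the gene, had 37.9, 34.8 and 48.9 in dKO and 58.5, 53.6 and 58.8 in control libraries (-0.43, SE 0.11, adjusted p = 0.0141). In each of these regions dKO 3 stood between the other dKO libraries and the controls.

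The other called Klf15 regions start at 90492063 (log2 fold change -0.43), 348 bp past the gene, and at 90506974 (-0.39), 90509177 (-0.48) and 90514491 (-0.50), with limma adjusted p of 0.0197, 0.0421, 0.0283 and 0.0286. In 15.8% of all shared regions every dKO value lay below every control value, a pattern that a call favours. In all 7 called Klf15 regions the groups did not overlap. The exception was the weak region chr6:90501626-90501803, with 12.7, 7.94 and 11.8 normalized tags in dKO and 12.8, 11.1 and 11.4 in control libraries (-0.07, adjusted p = 0.788). These regions share a locus and are not independent. Without dKO 1 the 6 called regions other than that at 90450833 had adjusted p of 0.0504 to 0.148, and without dKO 2 of 0.0541 to 0.217. With quantile normalization the regions at 90450833 (0.00604) and 90508188 (0.0207) were called and the other 5 had adjusted p of 0.0523 to 0.130.

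Inside Klf15 no region was shared. A peak 1060 bp past the start given in the promoter table had 65.8 normalized tags in control 1 and one starting at 90475949 had 49.4 in control 1, and neither was called in another library. The peak finder asks for a fold over the local surroundings, which a site in a broadly open stretch can miss, so a library without a peak is not shown to be closed there. A region starting at 90492504, 800 bp past the gene, had 16.7, 13.4 and 20.8 normalized tags in dKO and 31.0 and 29.7 in control 1 and control 2, with no peak in control 3. Its dKO values lay below both control values, as at its neighbour 348 bp from the gene, where dKO libraries had 27.6, 27.5 and 38.0 and controls 44.1, 45.1 and 41.8.

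**Figure D2:**
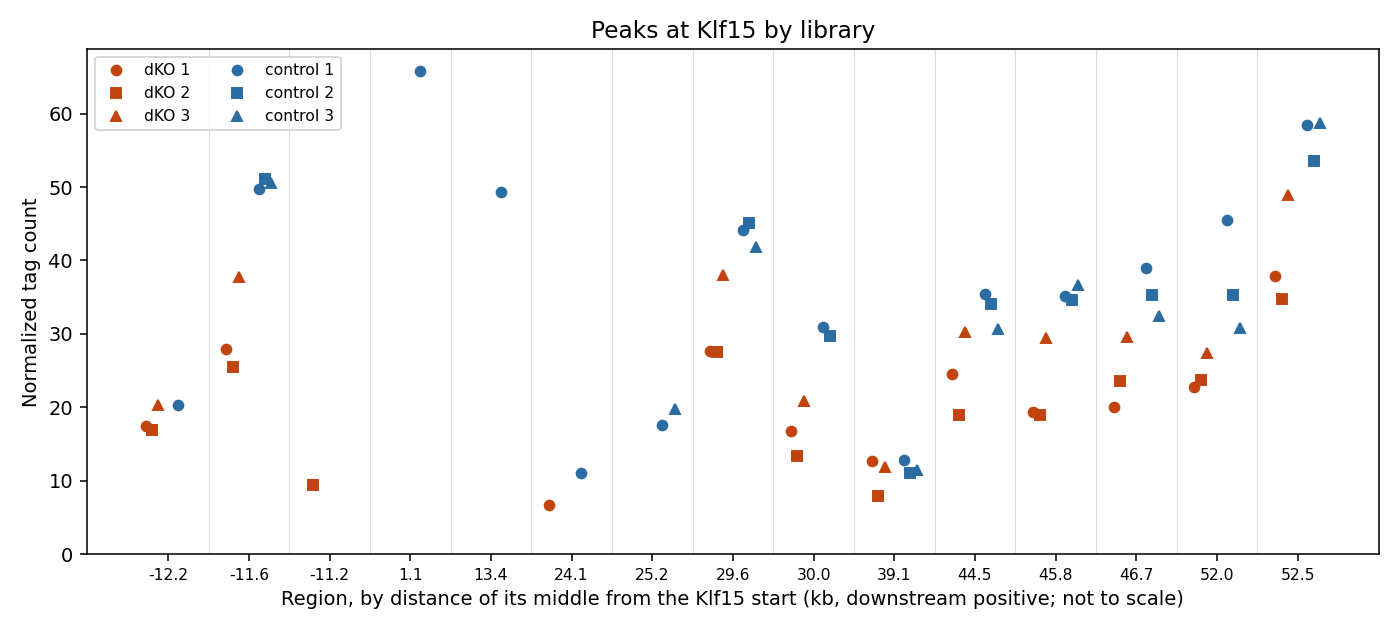
Normalized tag count of each library's highest peak in each of the 15 Klf15 regions, ordered along the gene by distance from its start; a missing point is a library without a peak. In the 8 regions with 6 points the dKO libraries lie below the controls except in the weak region past the gene that starts at 90501626, where the groups overlap.

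Among the genes of SIN3-binding factors, Klf9 and Klf10 changed in both directions while no shared region of Klf11, Klf13 or Klf16 was called. Together these 5 genes had 26 shared regions, of which 3 rose (11.5%) and 4 fell (15.4%), near the 8.19% and 11.6% of all shared regions. Klf9, the hormone-inducible factor, had 15 regions and 4 shared ones, of which 1 rose and 2 fell. At its start, chr19:23140854-23141026, which overlaps the first 51 bases of the printed window, values were 22.2, 20.5 and 38.8 normalized tags in dKO and 51.5, 36.7 and 44.7 in control libraries. The dKO 3 value exceeded that of control 2, so the groups overlapped. The log2 fold change was -0.67 (SE 0.17, limma adjusted p = 0.0144), and it was not called without dKO 1 (0.0814), dKO 2 (0.0938) or control 1 (0.0614). Within the narrow-peak libraries it was -1.10 and within the wide-peak ones -0.16, a difference with an unadjusted p of 0.00111 and an adjusted p of 0.431. Upstream of the gene, chr19:23120585-23120758 was higher, with 14.6, 13.7 and 12.4 in dKO against 8.83, 7.71 and 7.12 in control libraries (0.78, SE 0.17, adjusted p = 0.00880, and 0.0664 without dKO 2). Nearer to the gene, 15328 bp from it, chr19:23125799-23125998 was lower, with 4.02, 4.44 and 6.93 in dKO against 8.68, 8.81 and 10.4 in control libraries (-0.71, SE 0.17, adjusted p = 0.0109, and 0.0661 and 0.0550 without dKO 1 and dKO 2). The 2 upstream Klf9 regions thus differed in opposite directions in the same libraries, and in both the groups did not overlap.

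Klf10, first described as a gene induced early by TGF-beta, had 16 regions and 10 shared ones, of which 2 rose and 2 fell. The largest change at any KLF gene was at chr15:38328543-38328829, 27975 bp from the gene, with 12.1, 9.46 and 16.3 normalized tags in dKO, against 37.0, 46.5 and 27.5 in control libraries. The log2 fold change was -1.42 (SE 0.18, limma adjusted p = 0.000752), and every dKO library was below every control. On the other side of the gene, chr15:38278064-38278358 had 14.3, 13.8 and 11.7 in dKO, against 5.16, 6.56 and 6.11 in control libraries (1.101, SE 0.18, adjusted p = 0.00222). Both calls were made without each library in turn. Nearer to the gene, chr15:38283940-38284210 was higher too, with 22.4, 20.9 and 22.9 in dKO, against 15.5, 16.0 and 13.4 in control libraries (0.59, SE 0.14, adjusted p = 0.0108, and 0.0525 and 0.0808 without dKO 1 and dKO 2). At 332 bp from the gene, the region starting at 38300909 was called at the edge of the threshold (-0.37, adjusted p = 0.0478), with 55.0, 62.0 and 83.0 in dKO and 88.6, 89.3 and 88.2 in control libraries. It was not called without any one of dKO 1, dKO 2 or the 3 controls (adjusted p of 0.0993 to 0.155), nor with quantile normalization (0.0742) or with the peak width as a term (0.0822).

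The other SIN3-binding members had no call among their shared regions over all libraries with median centring. Of these, 2 of 4 shared regions of Klf11, 3 of 5 of Klf13 and 1 of 3 of Klf16 had an unadjusted limma p under 0.05. The share of all shared regions under that unadjusted limit was not counted, and 19.8% were called at the stricter adjusted one. These counts are thus not shown to exceed those of the series. Klf11, the gene of another TGF-beta-inducible factor, had 7 regions and 4 shared ones, with log2 fold changes of -0.31 to 0.34. With quantile normalization the Klf11 region starting at 24642415 was called higher (0.46, limma adjusted p = 0.0248). The strongest shared Klf11 region, chr12:24651729-24652156, had 35.0, 34.3 and 50.4 normalized tags in dKO and 52.3, 51.2 and 49.9 in control libraries (-0.31, adjusted p = 0.0749, and 0.0182 without dKO 3). There dKO 3 lay among the controls and the other dKO libraries below them. The peak at the Klf11 start, beginning at 24651329, was called in dKO 1 (33.1), dKO 2 (34.2) and control 1 (49.7), the 3 narrow-peak libraries. The wide-peak libraries had a peak 151 bp before the start, beginning at 24651133, with 44.2 in dKO 3 and 43.7 and 43.2 in control 2 and control 3. Klf13, known as an activator of the chemokine gene Ccl5 in T cells, had 20 regions and 5 shared ones (-0.31 to 0.20). At chr7:63937729-63937901 values were 56.7, 60.7 and 86.5 in dKO and 94.8, 83.7 and 81.6 in control libraries (-0.31, adjusted p = 0.102, and 0.0233 without dKO 3). Over its start, the region beginning at 63938729 had 47.1 and 51.6 in dKO 1 and dKO 2, no peak in dKO 3, and 87.2, 68.9 and 72.3 in control libraries. Klf16, a small factor first described as a regulator of dopamine receptor genes, had 5 regions and 3 shared ones (-0.33 to -0.01). The strongest, 133 bp from the gene and starting at 80577343, had 47.9, 46.5 and 74.2 in dKO and 74.1, 63.4 and 63.6 in control libraries (-0.22, adjusted p = 0.253, and 0.0386 without dKO 3). Leaving out any library other than dKO 3 gave no call in the strongest region of Klf11, Klf13 or Klf16. The limma adjusted p was then 0.112 to 0.269 at Klf11, 0.127 to 0.317 at Klf13 and 0.262 to 0.610 at Klf16. In the strongest region of each of these 3 genes the order was the same, with dKO 1 and dKO 2 lowest and dKO 3 within or just above the range of the controls. Other regions differed from that order: at the Klf16 region starting at 80569763 dKO 3 (22.3) was below all controls (25.8 to 30.4), as at the Klf13 region starting at 63911427 (63.4, against 67.2 to 84.1), and at the Klf11 region starting at 24642415 dKO 1 (31.4) and dKO 3 (33.2) were above all controls (21.2 to 28.5).

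**Figure D3:**
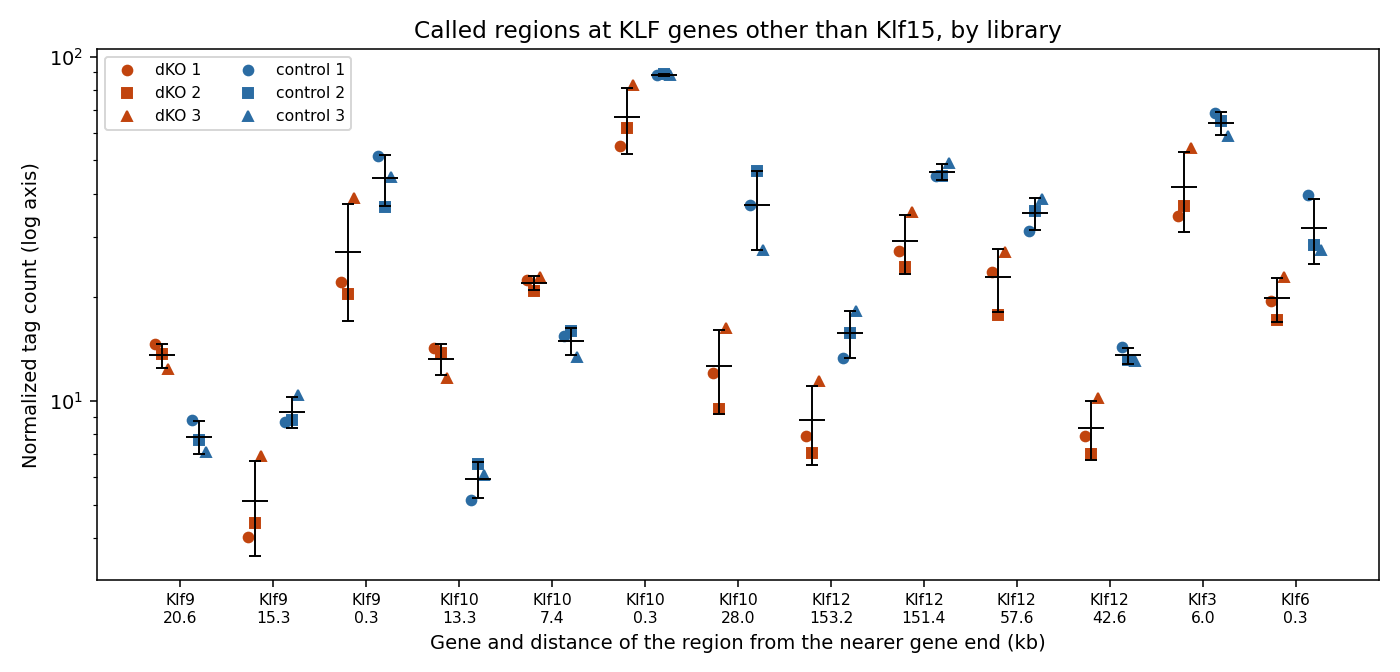
Normalized tag count (log axis) in each library for the 13 called regions at KLF genes other than Klf15, labelled by gene and by the distance in kb from the nearer gene end; bars are the mean ± SD of 3 libraries. The dKO points lie above the control points in 3 regions, 1 at Klf9 and 2 at Klf10, and the groups overlap only at the Klf9 region nearest to the gene.

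Both genes of CtBP-binding repressors had shared regions that fell and no shared region that rose. Together 5 of their 21 shared regions fell (23.8%), against 11.6% of all shared regions, of which 8.19% rose. Klf12, first described as a repressor of the AP-2 alpha gene, spans 419711 bp and held the most regions, 35, of which 17 were shared and 4 fell. At chr14:100134392-100134602, inside the gene, values were 27.3, 24.5 and 35.4 normalized tags in dKO, against 44.9, 44.9 and 49.1 in control libraries (log2 fold change -0.61, SE 0.11, limma adjusted p = 0.00364). Every dKO library was below the controls, and the call was made without each library in turn. A weaker neighbour, chr14:100132602-100132807, had 7.93, 7.06 and 11.4 in dKO and 13.3, 15.8 and 18.2 in control libraries (-0.73, SE 0.17, adjusted p = 0.00994). At chr14:100228163-100228405 values were 23.7, 17.8 and 27.1 in dKO and 31.2, 35.7 and 38.5 in control libraries (-0.55, SE 0.13, adjusted p = 0.00921). The region starting at 100243150 fell by 0.59 (adjusted p = 0.0174). Without dKO 2 the adjusted p of these last 3 regions were 0.0630, 0.0743 and 0.0869, and without dKO 1 those starting at 100132602 and 100243150 had 0.0520 and 0.0728. The strongest Klf12 region, 27 bp from the end of the span and starting at 100285814, was not called, with 61.4, 52.5 and 79.0 in dKO and 80.6, 84.7 and 79.7 in control libraries (-0.30, adjusted p = 0.0634, and 0.0137 without dKO 3). With any other library left out its adjusted p was 0.104 to 0.279. The Klf12 start in the promoter table lies inside the span and its window held no peak.

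Klf3, a repressor first known as basic KLF, had 10 regions and 4 shared ones, of which 1 fell. Its strongest region, chr5:64809380-64809593, 5965 bp inside the gene, had 34.4, 36.8 and 54.3 normalized tags in dKO, against 68.4, 64.9 and 58.8 in control libraries. The groups did not overlap, with dKO 3 just under the lowest control, and the log2 fold change was -0.57 (SE 0.13, limma adjusted p = 0.010, and 0.0501 and 0.0577 without dKO 1 and dKO 2). The other shared Klf3 regions had log2 fold changes of -0.09 to 0.07. At the start of Klf3, a region beginning at 64803453 had a peak in dKO 1 (43.8) and control 1 (61.4) only.

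Of the genes of factors that act mostly with coactivators, Klf6 had 1 region that fell and Klf4 had no call. That is 1 of 11 shared regions (9.09%), near the 11.6% of all shared regions that fell. Klf6, an immediate-early gene, had 16 regions and 4 shared ones. A region just before its start, chr13:5861118-5861348, which overlaps 110 bases of the printed window, was lower. It had 19.5, 17.2 and 22.9 normalized tags in dKO, against 39.7, 28.4 and 27.5 in control libraries (log2 fold change -0.58, SE 0.15, limma adjusted p = 0.0148). The groups did not overlap there, and the adjusted p was 0.0655 and 0.0760 without dKO 1 and dKO 2. The neighbouring region starting at 5861545, 152 bp past the start of the gene, was not shared and so not tested. It had 28.1, 16.7 and 25.8 in dKO and 23.2 and 26.9 in control 2 and control 3, with no peak in control 1, and the groups overlapped. The other 3 shared Klf6 regions had positive fold changes that were not called: 0.50 at 5811634, 0.64 at 5841485 and 0.41 at 5869942, with adjusted p of 0.0688, 0.0639 and 0.0891. Without dKO 3 the 3 were called higher, with log2 fold changes of 0.65, 0.81 and 0.55 and adjusted p of 0.0253, 0.0289 and 0.0254. Without dKO 1, which had the highest value in each, they were 0.30, 0.47 and 0.28, with adjusted p of 0.286, 0.254 and 0.344. The region at 5841485 was also called without control 3 (0.87, adjusted p = 0.0222). Leaving out any other library called none of the 3. Nearest to a gene end among the regions that were not shared, chr13:5870388-5870612, 107 bp past the gene, had 16.2, 14.6 and 14.0 in dKO. It had 8.89 and 5.77 in control 1 and control 3, with no peak in control 2.

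Upstream of Klf6, chr13:5840231-5840403 was the single KLF region with a peak in all 3 dKO libraries (6.35, 4.60 and 5.47 normalized tags) and in no control, a pattern of 1.57% of all regions. No KLF region showed the opposite pattern, which 1.34% of all regions did. Klf4, a factor known for its part in pluripotency, had 9 regions and 7 shared ones and none was called (log2 fold changes of -0.44 to 0.31). An unadjusted limma p under 0.05 was found for 1 of the 7, and the share of all shared regions under that limit was not counted. At the Klf4 start, chr4:55532447-55532710, values were 14.3, 18.5 and 20.3 in dKO and 17.5, 20.8 and 21.2 in control libraries, a log2 fold change of -0.10 (SE 0.16, adjusted p = 0.679). Its strongest region, starting at 55514816, had 22.5, 25.0 and 33.4 in dKO and 22.7, 30.5 and 29.3 in control libraries (0.03, adjusted p = 0.920). In both the groups overlapped.

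The strongest shared region of each gene was set in order within each group. In dKO libraries the mean was 93.4 ± 22.3 normalized tags at Klf10, 68.0 ± 16.2 at Klf13, 64.3 ± 13.5 at Klf12, 56.2 ± 15.6 at Klf16, 41.8 ± 10.9 at Klf3, 40.5 ± 7.41 at Klf15, 39.9 ± 9.10 at Klf11, 27.2 ± 10.1 at Klf9, 27.0 ± 5.71 at Klf4 and 19.9 ± 2.87 at Klf6 (SD, n = 3). In control libraries it was 119 ± 7.69 at Klf10, 86.7 ± 7.09 at Klf13, 81.7 ± 2.67 at Klf12, 67.0 ± 6.12 at Klf16, 64.0 ± 4.86 at Klf3, 57.0 ± 2.92 at Klf15, 51.1 ± 1.20 at Klf11, 44.3 ± 7.41 at Klf9, 31.9 ± 6.80 at Klf6 and 27.5 ± 4.20 at Klf4 (SD, n = 3). The order was the same in both groups except for Klf4 and Klf6, which changed places. These are peak values and not levels of RNA. At the Klf10 region, starting at 38299333, dKO libraries had 79.7, 81.4 and 119.1 and controls 115.6, 127.8 and 113.6 (log2 fold change -0.31, adjusted p = 0.0895, and 0.0128 without dKO 3). With any other library left out its adjusted p was 0.143 to 0.276. Over all 6 libraries the mean of the Klf10 region (106) lay above 99.9% of all shared regions and that of the Klf6 region (25.9) above 72.1%. Neighbours in the order such as Klf13 and Klf12 had overlapping ranges over all libraries.

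**Figure D4:**
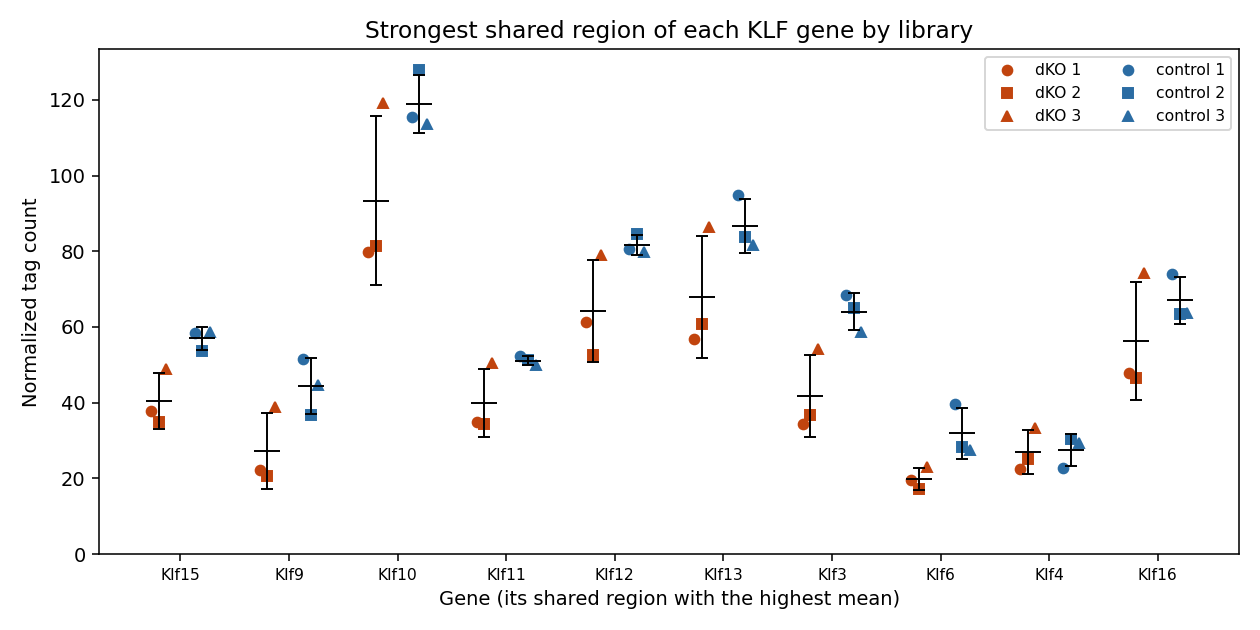
Normalized tag count of each library in the strongest shared region of each of the 10 genes, dKO left and control right; bars are the mean ± SD of 3 libraries. In 9 of the genes dKO 1 and dKO 2 lie below all controls, and at Klf4 they do not.

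The called KLF regions kept their direction within each peak width class. Group means were fitted per class, with 1 control among the narrow-peak libraries, 1 dKO library among the wide-peak ones and a spread shared by both classes. In both classes the sign was the same for all 20, and 18 of them had the larger change in the narrow-peak libraries. Neither share was counted over all called regions of the series, so neither is shown to be particular to KLF genes. The calls come from these very libraries, so a shared direction is favoured. Over all 66 shared KLF regions the signs matched between classes in 52 (78.8%), near the 72.5% of all shared regions. In the narrow-peak class 3 KLF regions were called higher and 21 lower (7.80% and 14.5% of all shared regions), while in the wide-peak class limma called 0 (20 of the 20 calls were lost), as it did over all regions, with 15 of the 66 (22.7%) and 7516 of all 51749 (14.5%) at an unadjusted p under 0.05. No difference between the classes was called at a KLF region (lowest adjusted p = 0.431), with 8 of 66 at an unadjusted p under 0.05 (12.1%), near the 10.4% of all shared regions. Nor was a difference between the classes called at any other shared region of the series. Peak width and dKO 3 cannot be told apart here, since dKO 3 is the sole dKO library with wide peaks. Of the 82 KLF regions that were not shared, 41 had peaks only in narrow-peak libraries, as had 43.7% of such regions in the whole series.

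**Figure D5:**
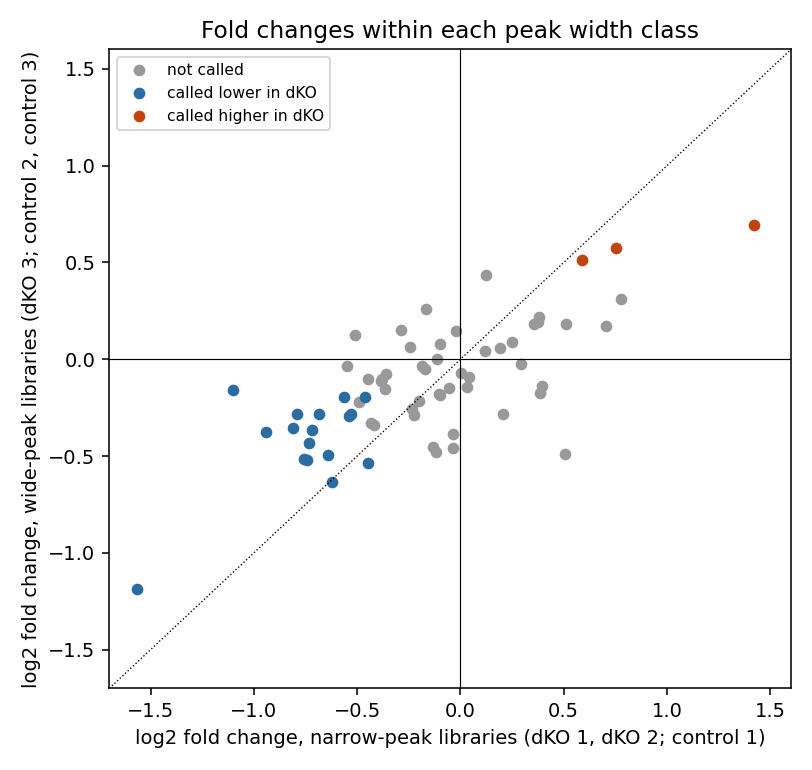
Log2 fold change (dKO minus control) of each shared KLF region within the narrow-peak libraries (horizontal) and within the wide-peak ones (vertical); the dotted line marks equal change. The called regions lie to the lower left (17) and upper right (3) of the origin, 18 of the 20 with the larger change in the narrow-peak libraries. The share of all called regions of the series with the larger change there was not counted.

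The rest of the family and the genes of known cofactors were counted in the same fit. At 16 other KLF and SP genes, 3 of 47 shared regions rose (6.38%) and 7 fell (14.9%), near the 8.19% and 11.6% of all shared regions. The median log2 fold change was 0.03. The smallest p was at Sp3, the gene of a widely expressed GC box factor, where a region starting at 72948348 had 14.9, 14.4 and 17.1 normalized tags in dKO, against 3.83, 7.85 and 6.17 in control libraries (log2 fold change 1.35, SE 0.20, limma adjusted p = 0.00160). Regions at Sp4 (-0.81, adjusted p = 0.00417) and Sp1 (-0.67, 0.0127) were next. At 10 genes of SIN3, CtBP and coactivator proteins, 1 of 39 shared regions rose (2.56%) and 6 fell (15.4%), with a median of -0.05. The 3 with the smallest p were all at Kat2b, the gene of the acetyltransferase PCAF, with log2 fold changes of -0.72, -0.68 and -0.51. The difference between these lists and the 10 genes was not tested.

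At the edge of the 50 kb limit, the farthest region taken lay 49734 bp from Klf6 (11.1, 6.43 and 7.23 normalized tags in dKO and 5.38, 5.55 and 6.11 in control libraries). The nearest left out lay 51992 bp from Klf3, with peaks in dKO 1 (11.9) and dKO 2 (11.1) only. A link to the nearest gene does not show which gene a region acts on, and exons, introns and UTRs were not analysed here.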

How the data were processed

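The build mm10 and the tools HOMER 4.11, SAMtools 1.10, Picard and Trim Galore 0.6.4 are named in the submitters' processing notes. The aligner is not given in the sources used here, nor are options. Each library has its own deposited peak list in HOMER's format, per the file headers, with a normalized tag count (a signal scaled to depth by the authors' peak finder), a focus ratio (a fraction), a score, a ratio as local fold with a p-value, and a clonal fold. The signal was analysed and the score used only as a filter. The depth in reads is unknown.

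Autosomal and X peaks that shared 1 bp were merged, and a region's value was the library's highest peak. Regions were linked by their middle to the nearest protein-coding span of a RefSeq table of GRCm38.p6. Values of regions shared by all 6 libraries were put on a log2(value + 1) scale, median-centred and fitted in R 4.3.3 by limma 3.58.1 (trended variance), group as the only term, 2-sided p adjusted by Benjamini-Hochberg over all of them, threshold 0.05. Fold changes on this scale understate weak regions. Printed by position were the called regions, the strongest and the end-nearest region of each gene and regions with peaks in 1 group only. The fit was tested on simulated data. The members and lists were chosen with earlier results of these data known. Alternatives were other scalings, pseudocounts, filters, merging and linking distances, a replicate block, the peak width and leaving out each library. The other floxed gene beside Ncor1 is not reported here.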

Additional observations from a re-analysis of the deposited data

How the results depend on the processing

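The counts of 3 higher and 17 lower KLF regions stayed within 1.5 times with no centring, other pseudocounts (0.5 or 5), summed peaks, a score filter, a 50 bp merge and the peak width as a term. Such counts need not hold the same regions, since 17 of the 20 calls were tested again with the score filter and 17 with the merge. With the score filter the higher regions starting at 23120585 (Klf9) and 38278064 (Klf10) were not among them. With a mean of at least 20, 14 of the 20 were tested again and none of the 3 higher regions was, so the 2 higher calls there are other regions. The lower count was 11 with quantile normalization and 9 with a mean of at least 20 (9.49% of all regions there), and the higher count 9 with regions called in at least 3 libraries, which tests more regions (6.55% of all regions higher and 8.41% lower). Of the 40 KLF regions this adds, 6 were called higher and 5 lower, against 5.72% and 4.82% of all added regions; the 6 passed the filter through peaks in all 3 dKO libraries, with 1 or 2 controls left, so they support nothing. With links within 10 kb the counts were 1 and 9, by fewer regions, and within the wide-peak libraries 0 and 0; for quantile normalization and the mean filter the cause was not tested. Leaving out 1 library gave 1 to 6 higher and 3 to 23 lower; without dKO 2, 16 of the 20 calls were lost and without dKO 1, 14, and 4 were called without every library in turn. No named region with a call changed sign in any alternative. With the replicate number as a block, 6 regions were higher and 16 lower (10.5% and 14.3% of all regions). Deviations of same-numbered libraries correlated at 0.146, -0.0322 and 0.234, so the numbers are not shown to pair libraries; dKO 1 and dKO 2 both correlated best with control 1 (0.146 and 0.157). The 3 libraries per group limit these calls, and the depth in reads is unknown.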

Other observations

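Several KLF regions that were not shared had peaks in all dKO libraries and in 1 control only. The share of all regions with this pattern was not counted. The dKO mean was 18.2 normalized tags at Klf15 (start 90450304), below the 20.3 in control 1. At Klf10 (38290230) the dKO mean was 11.4, as in control 1. It was 15.5 at Klf16 (80566409) and 16.8 at Klf13 (63887324), against 13.5 and 10.6 in control 1. Peaks in all controls and 1 dKO library were found inside Klf12. There control means were 5.75 (100116399) and 6.96 (100140480), against 5.59 in dKO 3 and 4.66 in dKO 1. A region inside Klf12 starting at 100211119 had 22.9, 19.6 and 14.9 normalized tags in dKO libraries and 7.61 in control 1. At Klf13 a region starting at 63851955 had 13.6, 11.7 and 8.99 in dKO libraries and 5.10 in control 3. At Klf6 the regions starting at 5832171 (7.46, 6.01 and 8.02 in dKO libraries) and 5845215 (10.3, 6.85 and 8.87) each had 3.49 in control 2. A stronger region inside Klf13, starting at 63897171, had 44.4, 41.9 and 68.7 in dKO libraries and 74.8 and 81.0 in control 2 and control 3, with no peak in control 1. These are values only, since a library without a peak gives no measurement at the site.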
